A study of Mus musculus with 8 samples.

Results

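The immediate early transcription factors followed here are *Egr1*, *Egr2*, *Egr3*, *Fos*, *Fosb*, *Junb*, *Ier2*, *Nr4a1*, *Nr4a2* and *Nr4a3*. They were taken by name, as every array probe that is not a control and carries one of these 10 gene names, which gave 19 of 56605 probes and 10 of 37074 names on the array. The arrays compared 4 Co mice with 4 Pg mice. All were C57BL/6J, 12 weeks old, with no other allele or agent given, and male per the study's methods. Co mice received 100 μL of saline intravenously, and Pg mice received sonicated *P. gingivalis*, an oral anaerobe, in the same volume. The interscapular brown adipose tissue (BAT) was taken 18 h later, with 1 single-color (Cy3) Agilent array per mouse.

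Immediate early genes are transcribed within minutes of a signal at the cell surface, from factors that already lie in the cell and need no new protein. Kinases of the MAPK family and the cAMP pathway act on SRF with its Elk partners, which bind the CArG box, and on CREB, which binds the cAMP response element. The mRNAs are short lived, and many of them encode transcription factors that switch on a later wave of genes. In brown fat and muscle they are known to respond to adrenergic signals and contraction.

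A single slide, read in 1 scan, held all arrays. The Co arrays filled row 1 and the Pg arrays row 2, and slide row and treatment cannot be told apart. In each row replicates 1 to 4 lay in columns 1 to 4, so within a group mouse and slide column cannot be told apart either. Between 34760 and 35831 probes per Co array and between 31132 and 34063 per Pg array were well above background, and the 28 pairs of arrays correlated at r = 0.986 to 0.994. The label BAT did not match all of its defining markers. The probe of *Ucp1*, the uncoupling protein of brown fat, was above background on 0 arrays, as were those of *Elovl3*, *Slc27a2* and *Bmp8b*, while the other 9 of 13 brown adipocyte genes, *Cidea* among them, were above background on all 8. By quantitative PCR, however, the paper measured *Ucp1* and *Cidea* in the BAT and reported both as significantly lower in Pg mice. Why the array probe of *Ucp1* stayed at background was not tested. All 20 skeletal muscle genes, such as *Acta1* and *Ckm*, passed the background on all 8 arrays, and the median of their log2 signals was 17.4. In bulk tissue of this kind, fewer cells of a type and less RNA per cell cannot be told apart.

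RefSeq promoter windows (GRCm38.p6, 250 bases before to 50 after an annotated start) were held for 7 of the 10 genes. The stretches below, written 5′ to 3′ on the strand of the gene, are shown because they hold letters that match the motifs named above, before a start. Capitals mark a CArG box or the letters TGACG, read on either strand, where they appear as CGTCA on the reverse. Where a further start of the same gene lies upstream, the stretch was kept to 30 bases. They come from chr10:67537794-67537823 (+) for *Egr2*, chr12:85473751-85473838 (+) for *Fos*, chr7:19310091-19310115 (-) for *Fosb*, chr8:84978840-84978864 (-) for *Junb*, chr15:101266610-101266639 (+) for *Nr4a1*, chr2:57124100-57124213 (-) for *Nr4a2* and chr4:48045070-48045099 (+) for *Nr4a3*.
Egr2: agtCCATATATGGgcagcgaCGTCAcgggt
Fos: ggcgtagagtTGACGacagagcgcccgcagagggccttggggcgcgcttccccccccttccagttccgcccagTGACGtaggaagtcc
Fosb: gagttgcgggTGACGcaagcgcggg
Junb: ttcctgacagTGACGcgagccgcct
Nr4a1: ctgCGTCAatggaaccccgcgtgCGTCAcg
Nr4a2: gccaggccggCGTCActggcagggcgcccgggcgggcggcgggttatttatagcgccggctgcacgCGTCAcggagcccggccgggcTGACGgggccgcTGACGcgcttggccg
Nr4a3: agggTGACGtagcgtcccatgtCGTCAcat

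The letters TGACG, the core of a cAMP response element, were found in a window of all 7 genes and in 20.8% of 32851 mouse promoter windows. *Egr2* has 5 windows, the other 6 genes 1 each. In *Fos* the TGACG nearest to the start ended 62 bases before it, and in *Nr4a2* 4 copies lay between 200 and 107 bases before the start. The full palindrome TGACGTCA, which contains TGACG, was in the window of 0 of the 7 genes (1.79% of all windows). A CArG box was found for *Egr2* alone among the 7 (1.63% of all windows). Besides the box printed above, CCATATATGG, another *Egr2* window held CCTTTTTTGG, 72 to 63 bases before its start. Sites more than 250 bases before a start were not searched, so the absence of a box holds for these windows only. *Fosb* and *Nr4a1* held GCGGGGGCG, the site of the Egr proteins themselves (2.91% of all windows), and none of the 7 held its other form GCGTGGGCG (0.612%). The AP-1 site TGANTCA was in 0 of the 7 (7.81% of all windows), and the letters TATAAA were in *Fos*, *Junb* and *Nr4a2* (13.6% of all windows). Their positions differed. In *Fos* they lay 33 to 28 bases before the start. In *Junb* they ran from the start onward, and in *Nr4a2* they lay on the reverse strand, 164 to 159 bases before the start. Apart from TGACG within TGACGTCA and TATAAA, which a CArG box can hold but those of *Egr2* do not, no motif searched contains another. A match is a string of letters in these windows and not a measured binding site.

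To ask whether these genes differed 18 h after the injection, the background-subtracted signal of each probe was quantile-normalized between the arrays and log2-transformed, and Co and Pg mice were compared with limma across the 33819 probes with a signal well above background on 4 or more arrays. A gene was called at a Benjamini-Hochberg q under 0.1 with a fold change above 1.5, the thresholds of the study's methods, and its brightest tested probe stood for it. None of the 10 genes was called, against 1.61% of all probes and 1.18% of all 22323 genes tested. The mean of all 10 was higher in Pg mice, where 47.2% of all genes had a higher mean in Pg, and the median log2 fold change was 0.31 against -0.01 for all genes. *Egr1*, *Egr3* and *Nr4a2* had an unadjusted limma p under 0.05, as did 20.3% of all genes in either direction, and neither these 3 nor the other 7 passed the adjustment. For 1 of the 10, *Nr4a2*, every Pg array lay above every Co array (5.76% of all genes). The 10 genes share the same 8 arrays and are not independent of each other.

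**Figure D1:**
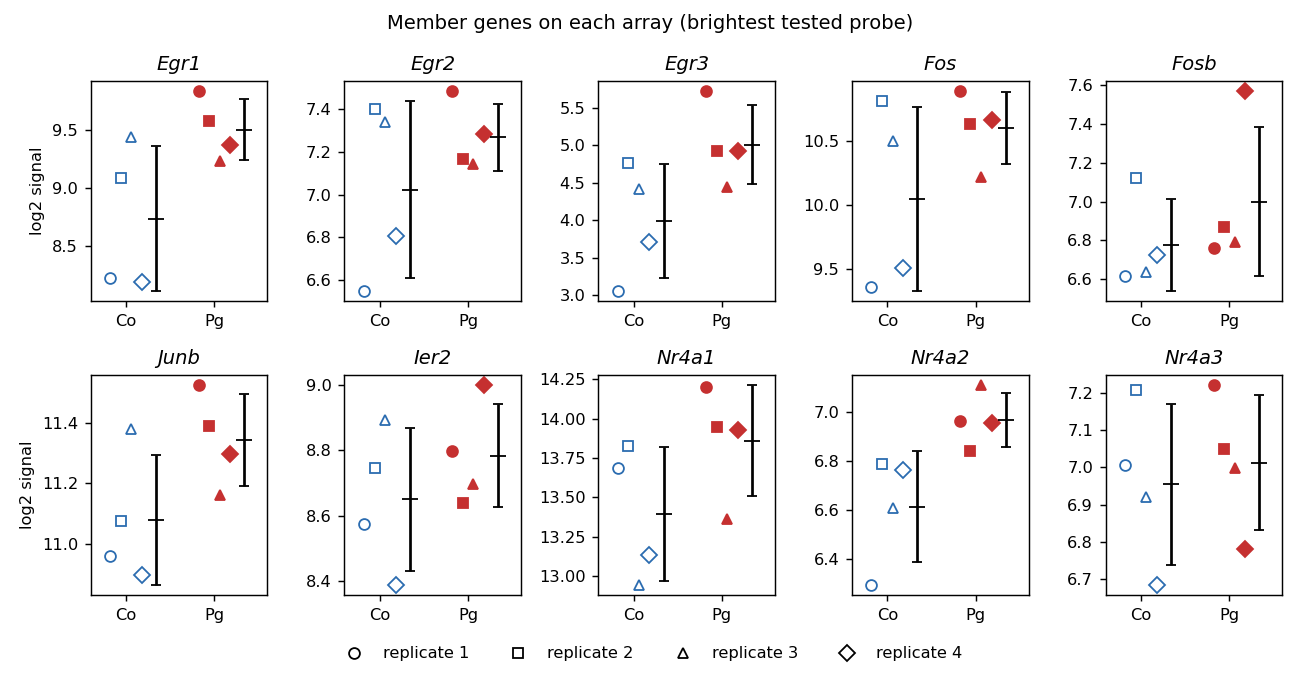
The log2 signal of the brightest tested probe of each gene (vertical axis, its own range in each panel) is plotted for 4 Co (open) and 4 Pg (filled) arrays, with a marker shape for each replicate number and a bar at the right of each group for the mean ± SD. For *Nr4a2* the groups did not overlap, while for *Egr1*, *Egr2*, *Egr3* and *Fos* Co replicates 1 and 4 lay low and Co replicates 2 and 3 lay within or close to the range of the Pg arrays.

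*Egr1* encodes a zinc finger factor of the early growth response family that binds GC-rich promoter sites. Its log2 signal was 8.23, 9.08, 9.44 and 8.19 on Co arrays 1 to 4 and 9.83, 9.58, 9.23 and 9.37 on Pg arrays 1 to 4. Co replicates 1 and 4 were low, Co replicates 2 and 3 were close to the Pg arrays, and the groups overlapped because Co replicate 3 lay above Pg replicates 3 and 4. The mean was 8.74 ± 0.62 (SD, n = 4) in the Co group, against 9.50 ± 0.26 (SD, n = 4) in the Pg group. The log2 fold change was 0.77 (95% interval 0.08 to 1.46, limma adjusted p = 0.182), a 1.70-fold higher mean that did not pass the adjustment. With 1 array left out, it ranged from 0.59 to 1.00.

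*Egr3*, a family member that is a known target of NFAT and other early signals, had the largest fitted change of the 10 genes with the processed signal. The log2 signal was 3.05, 4.77, 4.42 and 3.72 on the Co arrays and 5.72, 4.93, 4.45 and 4.93 on the Pg arrays, in replicate order. Only 2 Co and 3 Pg arrays were well above background, Co replicate 1 was the lowest of all and Pg replicate 1 the highest, and the groups overlapped. The log2 fold change was 1.02 (95% interval 0.07 to 1.96, limma adjusted p = 0.192). The size and the rank of this change were not stable. It was 0.21 with normexp and with the median signal and 0.32 in the authors' deposited values, where *Egr1* was at 0.64, 0.62 and 0.65, and it reached 1.28 without Co replicate 2. The other 2 probes of *Egr3* were above background on 1 of 8 arrays and on 0 of 8 and were not tested.

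*Egr2*, which is best known for its role in myelination and in T cell anergy, stood at 6.55, 7.40, 7.34 and 6.81 on the Co arrays and at 7.48, 7.17, 7.14 and 7.28 on the Pg arrays. The Pg arrays were close together, and Co replicates 2 and 3 reached their range. Its log2 fold change was 0.24 (95% interval -0.22 to 0.70, limma adjusted p = 0.502). It was 0.09 without Co replicate 1 and 0.37 without Co replicate 2.

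*Fos* encodes the factor that pairs with Jun proteins to form AP-1. Its log2 signal was 9.36, 10.81, 10.50 and 9.51 on the Co arrays and 10.89, 10.63, 10.22 and 10.66 on the Pg arrays. Co replicate 2 lay above all but one of the Pg arrays, and Co replicates 1 and 4 lay below every Pg array. The means were 10.05 ± 0.72 (SD, n = 4) and 10.60 ± 0.28 (SD, n = 4), with a log2 fold change of 0.55 (95% interval -0.23 to 1.34, limma adjusted p = 0.369). The difference was smaller than the SD among Co mice, and it was 0.33 without Co replicate 1 and 0.81 without Co replicate 2.

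*Fosb*, a Fos family member with a known long-lived splice form, was at 6.61, 7.12, 6.64 and 6.72 in Co mice and at 6.76, 6.87, 6.79 and 7.57 in Pg mice. Pg replicate 4 stood far above the other Pg arrays, and Co replicate 2 lay above the rest of them. In the fit the log2 fold change was 0.22 (limma adjusted p = 0.546), and it was 0.03 without Pg replicate 4 and 0.34 without Co replicate 2. Its second probe was not above background on any array.

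*Junb* encodes a Jun protein that often restrains the activity of c-Jun. Its brightest probe gave a log2 signal of 10.96, 11.07, 11.38 and 10.90 on the Co arrays and 11.53, 11.39, 11.16 and 11.30 on the Pg arrays. All Pg arrays lay above Co replicates 1, 2 and 4, and Co replicate 3 was within the Pg range. The log2 fold change was 0.26 (95% interval -0.02 to 0.55, limma adjusted p = 0.250), and it was 0.16 with the median signal, 0.13 with its tested probes averaged and 0.09 in the authors' deposited values. A dimmer tested probe of *Junb*, above background on 4 Co and 2 Pg arrays, gave a log2 fold change of -0.01 (limma adjusted p = 0.990) with the groups fully mixed. The 2 probes thus differed in their fitted change, and a further probe was above background on Pg replicate 3 alone.

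*Ier2* encodes a small nuclear protein with no DNA-binding domain that acts as a transcriptional regulator. It was at 8.57, 8.74, 8.89 and 8.39 in Co mice and at 8.80, 8.64, 8.70 and 9.0 in Pg mice. The arrays of both groups were interleaved, with a log2 fold change of 0.13 (95% interval -0.16 to 0.43, limma adjusted p = 0.561). This value was 0.05 without Co replicate 4, 0.06 without Pg replicate 4 and 0.21 without Co replicate 3. Its second probe was above background on 1 Pg array and was not tested.

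The Nr4a genes encode orphan nuclear receptors that act without a classical ligand and that are known targets of adrenergic signals in fat and muscle. *Nr4a1* (Nur77) was at 13.69, 13.82, 12.94 and 13.13 on the Co arrays and at 14.20, 13.95, 13.36 and 13.93 on the Pg arrays. The low Co arrays here were replicates 3 and 4, not 1 and 4, and all Pg arrays except replicate 3 lay above every Co array. Its fitted log2 fold change was 0.46 (95% interval -0.10 to 1.03, limma adjusted p = 0.304).

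*Nr4a2* (Nurr1) was the one gene whose groups did not overlap. Its brightest probe was at 6.29, 6.79, 6.61 and 6.77 in Co mice and at 6.96, 6.84, 7.11 and 6.95 in Pg mice. The gap between the highest Co and the lowest Pg array was narrow, and Co replicate 1 was the lowest. The means were 6.61 ± 0.23 (SD, n = 4) and 6.97 ± 0.11 (SD, n = 4), with a log2 fold change of 0.35 (95% interval 0.08 to 0.63, limma adjusted p = 0.139). A second tested probe was at 5.94, 6.72, 6.78 and 6.69 in Co mice and at 7.08, 6.84, 6.79 and 6.57 in Pg mice. On that probe Pg replicate 4 was below 3 of the Co arrays, and the log2 fold change was 0.29 (limma adjusted p = 0.437), or 0.09 without Co replicate 1. Under 2 other signal choices *Nr4a2* had an adjusted limma p of 0.0677 (median signal) and 0.0853 (normexp), with a fold change that stayed under the limit of 1.5.

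*Nr4a3* (Nor1) was at 7.01, 7.21, 6.92 and 6.68 on the Co arrays and at 7.22, 7.05, 7.0 and 6.78 on the Pg arrays. The groups were mixed throughout, and the log2 fold change was 0.06 (95% interval -0.25 to 0.36, limma adjusted p = 0.821). Of its 2 other probes, 1 was above background on a single Pg array and 1 on 0 arrays. The intervals of *Nr4a3*, *Ier2* and the brightest *Junb* probe leave out a 1.5-fold change in either direction, which is 0.58 on the log2 scale. Without Co replicate 2 or Pg replicate 4 the change of *Nr4a3* was 0.14, and it was just under 0 without Co replicate 4 or Pg replicate 1.

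**Figure D2:**
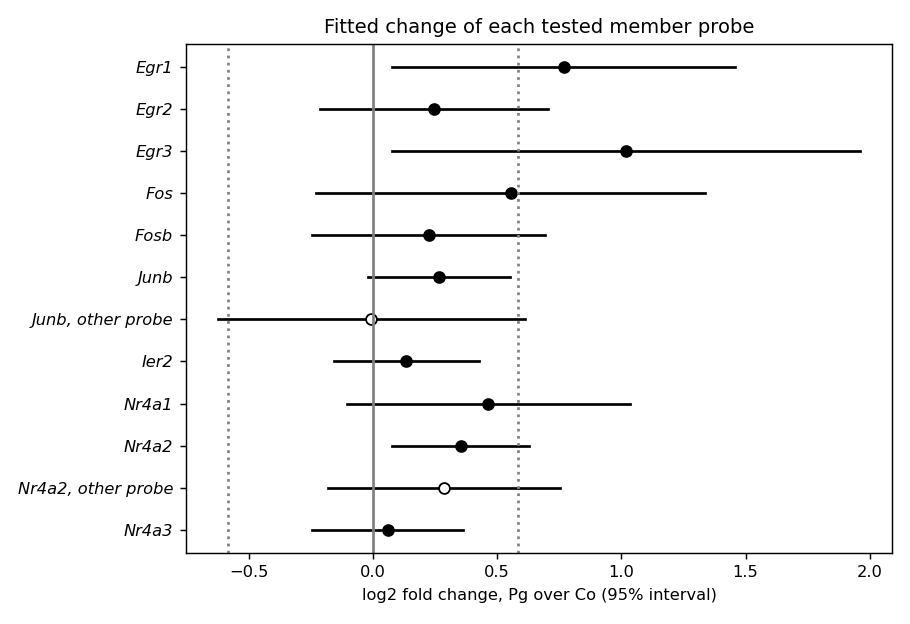
The log2 fold change of Pg over Co (horizontal axis) with its 95% limma interval is drawn for the 12 tested probes, filled for the brightest probe of a gene and open for a second one, with dotted lines at a fold change of 1.5 in either direction. The intervals of *Egr1*, *Egr3* and the brightest *Nr4a2* probe lie above 0, and those of the other 9 probes include 0.

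On mm9, the build named in the scanner output, the authors' table places the probe of *Egr2* on chromosome 10 from 67004758 to 67004817, that of *Fos* on chromosome 12 from 86818118 to 86818177 and that of *Nr4a1* on chromosome 15 from 101105071 to 101105130. The probes of *Junb* and *Ier2* lie on the same chromosome, 8, from 87500843 to 87500902 and from 87185211 to 87185245. The other 5 are *Egr1* (chromosome 18, 35024395 to 35024454), *Egr3* (chromosome 14, 70482361 to 70482420), *Fosb* (chromosome 7, 19888168 to 19888227), *Nr4a2* (chromosome 2, 56960699 to 56960758) and *Nr4a3* (chromosome 4, 48064521 to 48064580). Whether a probe lies in coding or untranslated sequence was not determined here, as no mm9 annotation was used.

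For most of the 10 genes the spread was wider among Co than among Pg mice, a difference that was not tested. The SD among Co arrays was larger than that among Pg arrays for 9 of the 10 genes, all but *Fosb*, while this held for 49.4% of the 19641 genes above background on all arrays, whose median SD was 0.12 in both groups. *Fos* ranged 2.73-fold among Co mice and 1.59-fold among Pg mice, and *Egr1* ranged 2.37-fold and 1.52-fold. The Co SD of *Egr1* was larger than that of 99.2% of those 19641 genes and that of *Fos* larger than 99.5%. *Nr4a1* (96.7%) and *Egr2* (96.4%) also stood high in this order, and *Junb*, *Ier2* and *Nr4a3* lay between 79.2% and 79.8%. Among Pg mice the same share was 91.6% for *Nr4a1*, 86.2% for *Fos* and 84.6% for *Egr1*, and for *Fosb* it was 83.1% among Co and 92.9% among Pg mice. *Egr3*, which was above background on 5 arrays and so is not one of those 19641 genes, had an SD larger than that of 99.6% of them among Co and 96.4% among Pg mice. Without *Egr3*, the SD was larger among Co arrays for 8 of 9 genes.

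The spread was shared among several of the genes. Co replicates 2 and 3 both lay above Co replicates 1 and 4 for *Egr1*, *Egr2*, *Egr3*, *Fos*, *Junb* and *Ier2*, a pattern noticed in these values that held for 15.6% of the same 19641 genes (without *Egr3*, 5 of 9 members). Among Pg mice, replicate 1 was the highest and replicate 3 the lowest for *Egr1*, *Egr2*, *Egr3*, *Fos*, *Junb* and *Nr4a1*. This order was also noticed in the values, and its share over all genes was not computed. As deviations from the group means over the 8 arrays, *Egr2* and *Fos* correlated at r = 0.96, *Egr2* and *Egr3* at 0.95 and *Egr3* and *Fos* at 0.93. Next came *Egr1* and *Junb* at 0.91 and *Egr1* and *Fos* at 0.90. All 6 pairs among *Egr1*, *Egr2*, *Egr3* and *Fos* lay between 0.84 and 0.96, whereas the 3 pairs of Nr4a genes lay between -0.34 and 0.59. Of all 45 pairs, 40 had an r above 0, with a median of 0.42. These are descriptions over 8 arrays that share 1 normalization, and they say nothing of shared control.

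**Figure D3:**
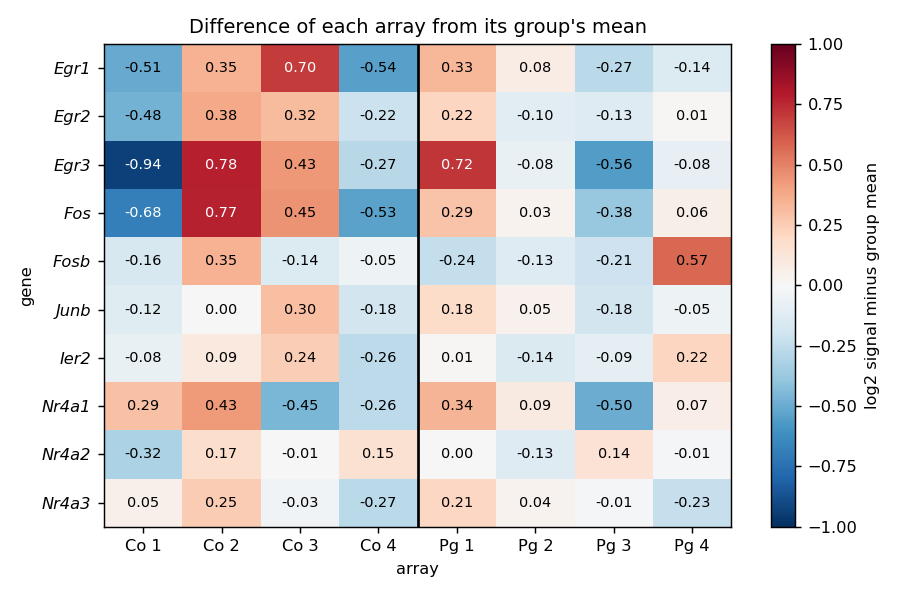
The log2 signal of each array minus the mean of its own group (color and printed value) is shown for the 10 genes (rows) on the 4 Co and 4 Pg arrays (columns). In *Egr1*, *Egr2*, *Egr3* and *Fos* the Co arrays 1 and 4 are negative and 2 and 3 positive, while the rows of the Nr4a genes follow other orders.

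*Fos* followed the other members most closely (r = 0.98 with their mean z-score over 8 arrays), then *Egr2* (0.94), *Egr3* (0.92) and *Egr1* (0.84). *Ier2* (0.63) and *Junb* (0.62) came next, and *Nr4a3* (0.43), *Fosb* (0.24), *Nr4a1* (0.21) and *Nr4a2* (0.19) followed the others least. Neighbours in this order were not told apart by a test. Outside the list, the tested genes whose deviations were most like the mean of all 10 were *Clec1b*, a receptor of platelets (r = 0.96), *Relt*, a receptor of the TNF family (0.96), a noncoding probe named by its position on chromosome 11 (0.95), *Grpel2*, a mitochondrial import cofactor (0.95), and *Kdm4b*, a histone demethylase (0.94). They are the highest of 22323 genes, chosen by this r, and are given with no test.

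The summed signal of no cell type marker list separated Co from Pg arrays, and 0 of the marker genes were called. By direction, a higher mean in the Pg group, as all 10 members had, was found for 6 of 6 tested neutrophil genes, 8 of 10 adipocyte, 7 of 9 macrophage, 7 of 10 endothelial, 5 of 9 brown adipocyte, 3 of 6 T and B cell, 4 of 20 skeletal muscle and 0 of 3 red blood cell genes. The neutrophil genes had log2 fold changes of 0.01 to 2.16, 3 of them with an unadjusted limma p under 0.05, and the red blood cell genes had a median of -0.63. The summed log2 signal of the neutrophil list was 15.29 to 15.62 in the Co and 15.54 to 15.75 in the Pg group, with 5 of 10 genes above background on all arrays and *Mmp9* and *Ngp* on 0.

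Across the 8 arrays, as deviations from the group means, the summed signal of the marker lists had an r with the mean of the 10 genes of 0.44 (red blood cell), 0.38 (adipocyte), 0.08 (macrophage), -0.10 (brown adipocyte), -0.14 (neutrophil), -0.17 (skeletal muscle), -0.17 (T and B cell) and -0.43 (endothelial). The red blood cell sum was 17.66, 18.10, 18.37 and 17.93 on the Co arrays and 17.41, 17.92, 16.62 and 18.41 on the Pg arrays. Co replicates 2 and 3 were high and Pg replicate 3 low, as for *Fos*, but Pg replicate 1, the highest for *Fos*, was low and Pg replicate 4 was the highest. The part of these cell types in the members' values was not tested.

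A list of 28 other immediate early genes, not all of them transcription factors, gave 25 tested genes. The mean of 12 was higher and that of 13 lower in the Pg group, 1 was called (1.18% of all genes), and 11 had an unadjusted limma p under 0.05 (20.3% of all genes). The median log2 fold change of the 25 was -0.14, against -0.01 for all genes. With 1 array left out this median ranged from -0.21 (without Co replicate 4) to -0.0015 (without Co replicate 2). The called gene was *Klf4*, a zinc finger factor of endothelial and epithelial cells and of macrophages. It was at 12.32, 12.53, 12.53 and 12.46 in Co mice and at 13.32, 13.13, 12.97 and 13.35 in Pg mice. Every Pg array lay above every Co array, with a log2 fold change of 0.73 (standard error 0.10, limma adjusted p = 0.0398). Unlike *Egr1* and *Fos*, its Co arrays lay within a narrow range. The call of *Klf4* was lost without normalization between arrays, with the replicate number as a block, and without Co replicate 3, where 3 probes of the whole array were called.

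A further 4 of these 25 genes had a q under 0.1 with a fold change under 1.5, where 6.23% of all genes tested had a q under 0.1 at any fold change. *Fosl2*, the Fos family member Fra-2, was higher by 0.42 on the log2 scale (limma adjusted p = 0.0553), and *Ier5*, *Zfp36*, which encodes an mRNA decay factor, and *Klf10* were lower, with log2 fold changes of -0.43, -0.55 and -0.43 (limma adjusted p = 0.0876, 0.0988 and 0.0992). Beside *Klf4*, the largest changes of the list were those of *Gem*, a small GTP-binding protein, with a log2 fold change of 0.67 (limma adjusted p = 0.118), and *Btg2*, an antiproliferative gene, with -0.56 (limma adjusted p = 0.166). *Gem* was called where probes had to be above background on all 8 arrays, and *Gem* and *Zfp36* were called without Pg replicate 3. *Jun*, the main partner of *Fos*, had a log2 fold change of -0.18 (limma adjusted p = 0.329) and lay at 14.25 to 14.49 in Co and 14.05 to 14.40 in Pg mice.

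**Figure D4:**
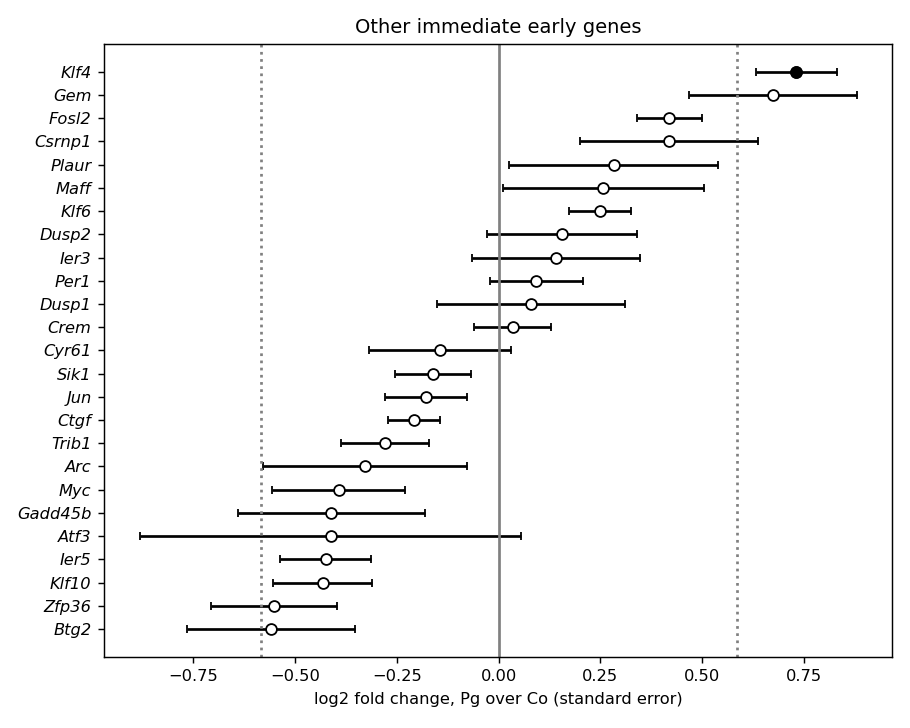
The log2 fold change of Pg over Co (horizontal axis) with its standard error is drawn for the 25 tested genes of the list of other immediate early genes, filled where the gene was called, with dotted lines at a fold change of 1.5. *Klf4* is the one filled point, and 12 genes lie to the right of 0 and 13 to the left.

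Among 22 genes of the upstream pathways, the MAP kinases and their RSK kinases, SRF and its partners, CREB and its coactivators and the MEF2 factors, all were tested and 0 were called (1.18% of all genes), and 6 had an unadjusted limma p under 0.05 (20.3% of all genes). The mean of 12 was higher in the Pg group, with a median log2 fold change of 0.05, but of 7, with a median of -0.10, when the tested probes of a gene were averaged. With that averaging 1 gene of the list, *Rps6ka3*, was called. *Elk3*, an SRF partner, was higher by 0.43 on the log2 scale (limma adjusted p = 0.0796), with a fold change under 1.5. *Rps6ka3* (RSK2) had the largest fitted change of this list, a log2 fold change of -0.89 (limma adjusted p = 0.191). Co replicate 1 was at 10.80, far above the other Co arrays at 9.08 to 9.33, and every Co array lay above the Pg arrays at 8.52 to 8.88. *Rps6ka2* had a log2 fold change of -0.26 (limma adjusted p = 0.118). *Srf* and *Creb1* themselves were at 0.08 and 0.14 (limma adjusted p = 0.541 and 0.432).

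Of 14 genes that encode dimer partners, rivals and corepressors of the members, 11 were tested and 0 were called (1.18% of all genes), and 4 had an unadjusted limma p under 0.05 (20.3% of all genes). The mean of 7 was higher in the Pg group, with a median log2 fold change of 0.02, but of 4, with a median of -0.08, when the tested probes of a gene were averaged. *Nab2*, a corepressor of the Egr proteins and itself a known Egr target, was at 8.84, 9.37, 9.25 and 9.12 in Co mice and at 9.86, 9.67, 9.38 and 9.49 in Pg mice. Its groups did not overlap, though Pg replicate 3 was close to Co replicate 2, and the log2 fold change was 0.45 (limma adjusted p = 0.124). *Batf3*, an AP-1 factor of dendritic cells, had the largest fitted log2 fold change of the list, 1.86 (standard error 0.98, limma adjusted p = 0.303). It was carried by Pg replicates 2, 3 and 4 at 9.99, 7.27 and 6.60, while Pg replicate 1 was at 4.55, below the Co arrays at 5.15 to 5.37.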

How the data were processed

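The authors deposited the scanner output of Agilent Feature Extraction 11.0.1.1, a version given in the submitters' processing notes, with the background-subtracted and detrended Cy3 intensity of each spot. They also deposited a table of quantile-normalized log2 values (28067 entries), used as an alternative and for probe positions. Its columns of fold changes, p-values, q-values and statistics of their own comparison were not used here. Spots flagged as population outliers (90 to 150 per array) were left out. The spots of a probe were averaged, quantile-normalized over 8 arrays, set to at least 1 and log2-transformed, so a change is relative to the bulk of all probes. limma 3.58.1 (lmFit, eBayes, two-sided) was run in R 4.3.3, with the data.table package (version 1.17.8), on the 33819 probes well above background on at least 4 arrays, with Benjamini-Hochberg adjustment over all of them. The fit was tested on simulated data. No source says that the RNA of mice was pooled, and precision is limited by the number of arrays. The members and lists were chosen with earlier results of these data known. Named were all members with every probe, called genes and the 3 largest changes of each list, genes most like the members, and 4 marker genes. *Fosl2*, *Ier5*, *Zfp36*, *Klf10*, *Jun*, *Srf*, *Creb1* and the marker genes at background other than *Ucp1* were named after their values were seen. Of 8 marker lists (brown adipocyte, adipocyte, skeletal muscle, macrophage, neutrophil, endothelial, T and B cell, red blood cell), 0 genes were called. Motifs were searched on both strands of RefSeq promoter windows. Alternatives were other background steps, scalings, filters on dim probes, outlier spots, the mean over probes, the authors' table, each array left out and a replicate block.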

Additional observations from a re-analysis of the deposited data

Results flagged for a closer look

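Among 66 groups of 4 arrays, over the 19 probes of the members, the 3 largest changes of each list and the 5 genes most like the members, 6 held an array far from the other 3, where chance flags about 1 in 20. *Fosb* on Pg replicate 4 was at 7.57 against 6.76 to 6.87 on the other Pg arrays. The second tested probe of *Nr4a2* on Co replicate 1 was at 5.94 against 6.69 to 6.78. *Rps6ka3* on Co replicate 1 was at 10.80 against 9.08 to 9.33. The other 3 were probes that were not tested: one of *Junb* on Pg replicate 3 at 7.30 against 2.03 to 2.07, one of *Nr4a3* on Pg replicate 2 at 4.94 against 2.16 to 2.39, and one of *Egr3* on Pg replicate 1 at 3.12 against 2.14 to 2.16, which was not above background.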

How the results depend on the processing

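Under every alternative run, 0 of the 10 genes and 0 of the partner genes were called, and the median log2 fold change of the 10 lay between 0.20 and 0.42. All tested members were higher in Pg mice (9 of 9 where probes had to be above background on all 8 arrays, which left out *Egr3*), except that *Nr4a3* was at -0.032 without Co replicate 4 and at -0.011 without Pg replicate 1. With 1 array left out, between 1 and 5 of the 10 had an unadjusted limma p under 0.05. The count of called other immediate early genes was 0 without normalization between arrays, 2 with probes above background on all 8 arrays, 0 with the replicate block and 0 to 3 with 1 array left out (0 without Co replicate 3, 3 without Pg replicate 3). The count of upstream genes was 1 (*Rps6ka3*) with the mean of the tested probes of a gene. The second tested probe of *Junb* changed sign with normexp (0.024), the median signal (0.0051), scaling to the 75th percentile (0.12) and no normalization (0.17), and ranged from -0.16 to 0.14 with 1 array left out. Among the other signal and scaling choices the log2 fold change reached 0.10 and 0.37 for *Fosb*, 0.07 for *Ier2*, 0.14 for the second *Nr4a2* probe and 0.03 and 0.19 for *Nr4a3*. Without normalization the median of all genes moved from -0.01 to 0.05. Same-numbered Co and Pg arrays shared a slide column. The r between them was 0.06, -0.03, -0.07 and 0.18, with 2 of 4 best with their own number. These few values cannot decide whether the numbers pair the samples. The replicate block left 0 of 546 probes called. Over all probes tested, 546 were called (106 higher in Pg mice), against 283 (137 higher) with scaling to the 75th percentile. The count was 108 (75 higher) with the median signal, 94 (66 higher) with normexp and 27 (20 higher) without normalization. With 1 array left out it was 3 to 698. On the 28067 entries of the quantile-normalized log2 table, limma called 106 (60 higher in Pg mice). Of the 546, most were lower in Pg mice, while most of the 106 from that table were higher. The median log2 fold change ranged from -0.10 to 0.06 for the upstream genes and from -0.08 to 0.13 for the partner genes, and changed sign for both. The causes were not tested.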
